A study of Rattus norvegicus with 36 samples.

Results

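The genes described here are a fixed set of 48 rat genes of the cell cycle and DNA replication, named by symbol, of which 46 had a probe set on the array. They were found by the platform's gene symbol, and each was read from a single probe set, the brightest on average across the 36 arrays of those annotated to it and to no other gene. The array table named 14217 genes on 31042 probe sets, and the 46 genes had 64 probe sets among these. By role, 16 of the measured genes act in DNA replication, 6 regulate entry into S phase, and 24 act in G2 and mitosis. Rrm2, a ribonucleotide reductase subunit, and Cdc6, a loader of the replicative helicase, are also in the set but had no probe set annotated to them alone. The rule that named the genes used no comparison between dose groups. The genes were nevertheless chosen with earlier results of these data known, so their counts are not an independent test.

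The study dosed male Harlan Sprague Dawley rats with PBDE47, a tetrabrominated diphenyl ether flame retardant, by gavage in corn oil once a day on 5 consecutive days, starting at 7 weeks of age. The 6 groups were corn oil alone (the vehicle group, at 0 mg/kg) and PBDE47 at 0.0485 mg/kg (the lowest dose), 0.485 mg/kg, then 4.85 mg/kg, 48.5 mg/kg and lastly 485 mg/kg. Each group held 6 rats, and RNA from the left liver lobe, taken 1 day after the last dose, was hybridised to 1 Affymetrix rat array per rat. The study compared each dose with vehicle, and the 2 highest doses are also compared here with each other. All values are the deposited log2 RMA values, which have no unit beyond the array's own scale, so a difference of 1 is a doubling of signal. Array medians ranged between 5.31 and 5.38, and no 2 arrays were identical. The 8 measured hepatocyte markers were all brighter than the array median in vehicle livers. In whole liver, more cells of a kind and more RNA per cell cannot be told apart.

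A dividing cell copies its DNA in S phase and separates the copies in mitosis. Cyclin D with Cdk4 and cyclin E with Cdk2 release E2F transcription factors, which switch on the genes of the replication machinery and of nucleotide supply. The mitotic genes come on later, in G2, under another set of promoter elements, and they encode the kinases, motors and checkpoint proteins that separate the chromosomes. Hepatocytes of an adult rat are mostly at rest but can return to the cycle after loss of liver tissue or after exposure to many liver-enlarging chemicals.

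Most replication genes and most mitotic genes rose at the top dose, while Ccnd1, which encodes cyclin D1, fell. On the probe sets used, only Mcm2, Fen1, Pcna and Kif11 had already risen at 48.5 mg/kg. A gene was called when its p in limma, adjusted by Benjamini-Hochberg across the whole table of 31042 probe sets, was below 0.05. At the 3 lowest doses no gene of the set was called, and of all probe sets 0%, 0% and 0.0193% were called at 0.0485, 0.485 and 4.85 mg/kg. At an unadjusted p below 0.05, 4 of the 46 genes passed at the lowest of these doses and 1 at each of the other two, beside 4.89%, 4.45% and 6.46% of all probe sets. The 48.5 mg/kg dose gave 4 of 46 genes that rose and 0 that fell, against 2.57% of all probe sets called higher, 0.821% called lower and 3.39% called in either direction. At 485 mg/kg, 32 rose and 1 fell, against a background of 7.81% higher, 7.22% lower and 15.0% in either direction. The moderated F test over all 5 doses called 36 of 46, against 13.0% of all probe sets. These were 13 of 16 replication genes, 4 of 6 regulators of S phase entry and 19 of 24 mitotic genes. They included Mcm4, Mcm7, Ccnb2 and Cdkn3 (F test adjusted p = 0.00506, 0.0224, 0.0131 and 0.0154), which were called at no single dose against vehicle. The F test counts differences in either direction at any dose.

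**Figure D1:**
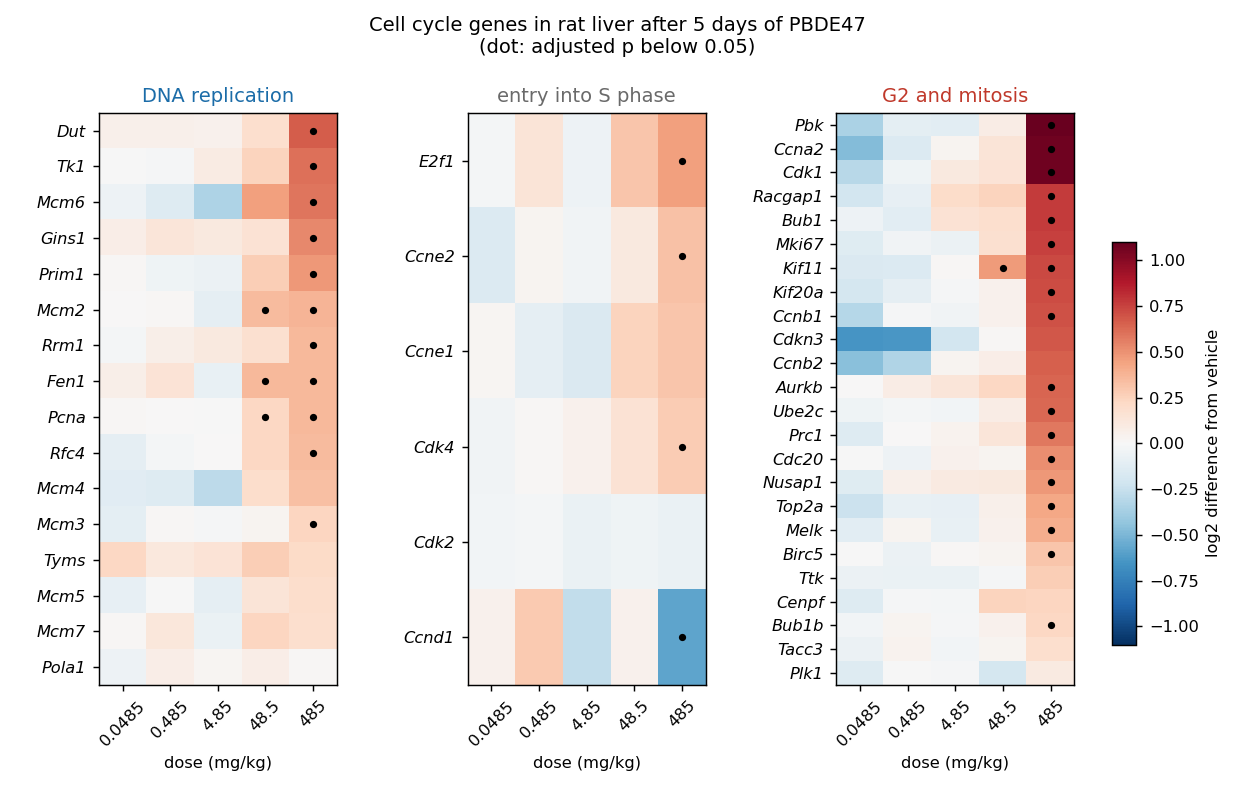
Log2 difference from the vehicle mean for each of the 46 measured genes (rows, ordered by the change at 485 mg/kg within each role) at each dose in mg/kg (columns), as colour, with a dot where the adjusted p was below 0.05. The 3 replication genes with a dot at 48.5 mg/kg are Mcm2, Fen1 and Pcna, the single mitotic gene with one is Kif11, and Ccnd1 is the only gene with a dot on a blue cell.

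The median changes of the 2 main roles were of different size at the 2 highest doses. For the 16 replication genes the median log2 difference from vehicle was 0.23 at 48.5 mg/kg and 0.36 at 485 mg/kg. For the 24 mitotic genes it was 0.08 at the lower of these doses and 0.64 at the higher. All probe sets together had a median of -0.01 at both. All 16 replication genes lay above the vehicle mean at 48.5 mg/kg, though only 3 were called, and 22 of 24 mitotic genes did, with 1 called. At 485 mg/kg 11 of 16 replication genes, 3 of 6 regulators of S phase entry and 18 of 24 mitotic genes rose. At 48.5 mg/kg the replication median exceeded the mitotic one by 0.15 with all arrays, by 0.04 without vehicle replicate 5, whose mitotic genes were high, and by 0.22 without vehicle replicate 4, whose mitotic genes were low. The mitotic median at that dose was 0.18 without vehicle replicate 5 and -0.0028 without vehicle replicate 4. At 485 mg/kg the replication median minus the mitotic one was -0.28, and between -0.39 and -0.16 when any 1 array was left out. Both doses are set against the same vehicle arrays, so these pairs of values are not independent.

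Rat by rat, the replication genes covered a narrower range than the mitotic genes among vehicle rats and at 48.5 and 485 mg/kg, but a wider one at 0.0485 mg/kg, where the replication medians lay between -0.10 and 0.09 and the mitotic ones between -0.17 and -0.13. Each rat's median over the genes of a role was taken after subtracting each gene's vehicle mean. For the replication genes it lay between -0.10 and 0.12 among vehicle rats, between 0.09 and 0.35 at 48.5 mg/kg and between 0.26 and 0.50 at 485 mg/kg. All 6 rats at 485 mg/kg thus lay above all 6 vehicle rats, and the 48.5 mg/kg group overlapped the vehicle group. For the mitotic genes it lay between -0.33 and 0.43 among vehicle rats, between -0.10 and 0.37 at 48.5 mg/kg and between 0.16 and 0.84 at 485 mg/kg, so the top dose overlapped vehicle. Vehicle replicate 5 held the highest value of its group for 23 of 24 mitotic genes but for only 1 of 16 replication genes, and vehicle replicate 4 the lowest for 17 mitotic genes. At 485 mg/kg, replicate 1 was highest for 15 mitotic genes and replicate 4 lowest for 16. Each rat's replication median minus its mitotic median lay between -0.46 and 0.33 among vehicle rats. It lay between -0.14 and 0.32 at 48.5 mg/kg and between -0.49 and 0.21 at 485 mg/kg, so these groups overlapped. This difference was above 0 in 4 of 6 vehicle rats, 4 of 6 rats at 48.5 mg/kg and 2 of 6 at 485 mg/kg.

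**Figure D2:**
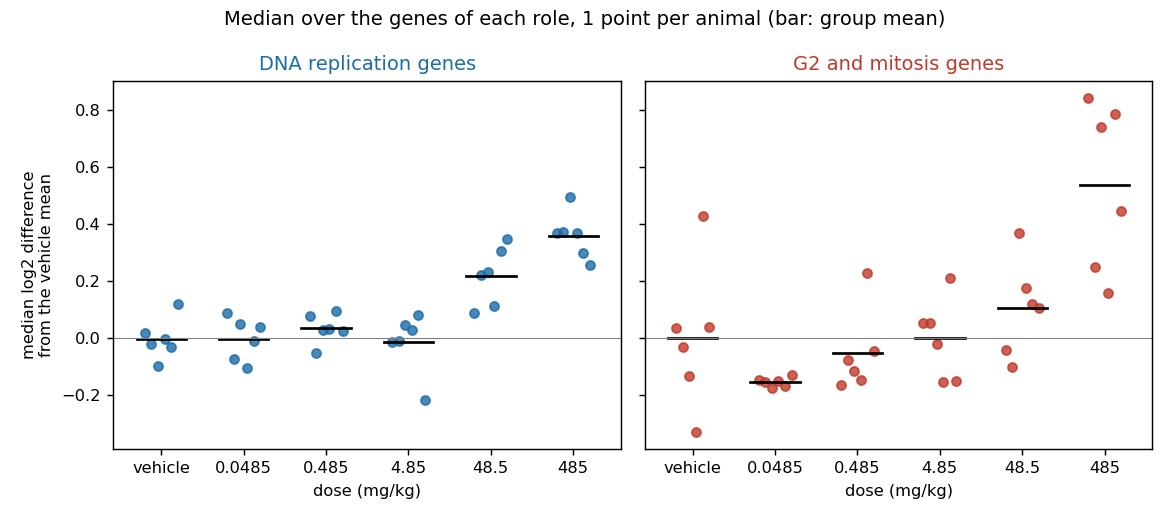
Median over the 16 replication genes (left) and the 24 mitotic genes (right) of the log2 difference from each gene's vehicle mean, 1 point per rat, with a bar at each group mean, by dose in mg/kg. The replication medians lie above 0 in all 6 rats at 48.5 and 485 mg/kg, and the mitotic medians spread from -0.33 to 0.43 among vehicle rats and from 0.16 to 0.84 at 485 mg/kg.

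The share of promoter windows holding 3 short motifs is given here for both roles, and the difference between the roles was not tested. RefSeq windows of 300 bases on the GRCr8 assembly, from 250 bases before to 50 after each annotated start, were matched by symbol for 37 of the 46 genes (39 windows, since Dut and Cdkn3 have 2 each). Both strands were searched for the E2F core (TTCCCGC or TTGGCGC), the cell cycle homology region or CHR of late cell cycle genes (TTTGAA or TTCGAA), and the CCAAT box (CCAAT). The E2F core stood in 10 of 16 replication windows (62.5%) and in 2 of 20 mitotic windows (10.0%), against 6.26% of all 33469 windows. The CHR stood in 4 of 16 replication windows (25.0%) and in 15 of 20 mitotic windows (75.0%), against 19.7% of all windows. A CCAAT box stood in 9 of 16 replication windows (56.2%), 17 of 20 mitotic windows (85.0%) and 37.5% of all windows. A match is only a run of letters, and its use in these livers was not measured. The 3 windows below belong to a replication gene and a pair of mitotic genes described further on. Cdk1 and Mki67 are the 2 of 20 mitotic windows with an E2F core, so they are not typical of the role for that motif. The windows are read 5′ to 3′ on the gene's strand, with matches in capitals on either strand. Mcm6, the helicase subunit, lies at chr13:42404303-42404602 on the minus strand and holds 2 E2F cores and 2 CCAAT boxes. Cdk1, the mitotic kinase, at chr20:19265043-19265342 on the plus strand, holds 1 E2F core, 2 CHR matches and 3 CCAAT boxes. Mki67, the proliferation antigen Ki-67, at chr1:199952544-199952843 on the minus strand, holds 1 E2F core, 2 CHR matches, 1 of which overlaps a CCAAT box, and 4 CCAAT boxes.
Mcm6: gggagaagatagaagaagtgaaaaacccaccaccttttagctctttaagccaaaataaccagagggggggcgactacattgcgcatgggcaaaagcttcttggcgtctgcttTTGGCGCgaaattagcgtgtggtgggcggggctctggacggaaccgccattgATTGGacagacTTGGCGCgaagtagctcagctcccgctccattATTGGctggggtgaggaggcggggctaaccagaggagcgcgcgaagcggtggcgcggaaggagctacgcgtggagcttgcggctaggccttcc
Cdk1: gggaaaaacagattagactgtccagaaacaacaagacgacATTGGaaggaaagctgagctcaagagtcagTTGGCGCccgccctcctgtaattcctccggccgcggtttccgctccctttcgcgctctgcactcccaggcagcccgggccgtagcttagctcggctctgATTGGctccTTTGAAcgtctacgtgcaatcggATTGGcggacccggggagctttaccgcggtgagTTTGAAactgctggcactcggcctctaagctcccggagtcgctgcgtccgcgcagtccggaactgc
Mki67: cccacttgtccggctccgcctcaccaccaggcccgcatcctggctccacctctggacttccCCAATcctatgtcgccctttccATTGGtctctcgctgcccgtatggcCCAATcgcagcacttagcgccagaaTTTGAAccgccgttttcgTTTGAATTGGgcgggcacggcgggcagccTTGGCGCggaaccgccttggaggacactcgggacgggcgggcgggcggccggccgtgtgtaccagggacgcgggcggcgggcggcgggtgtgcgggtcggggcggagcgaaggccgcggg
Among the other genes with large changes, the windows of Tk1 and Bub1 held none of the 3 motifs, and neither did the first of the 2 windows of Dut.

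**Figure D3:**
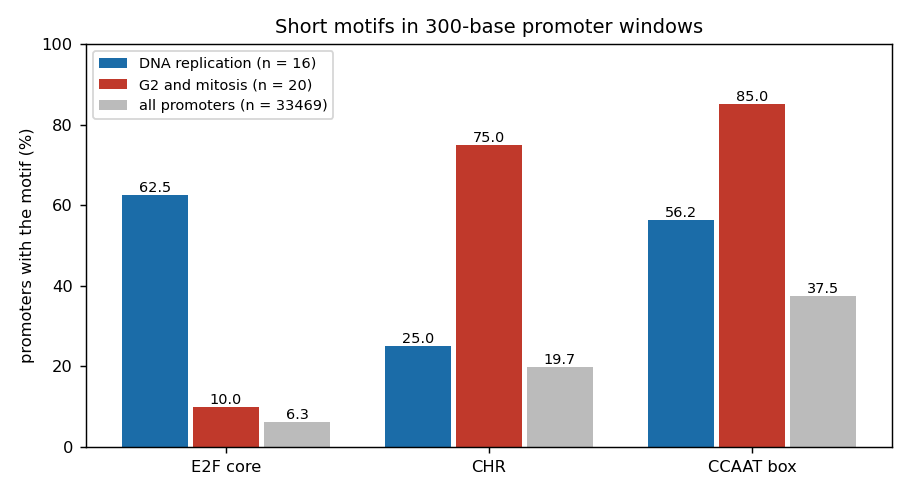
Share of 300-base promoter windows, in percent, that hold at least 1 match to the E2F core, the CHR or the CCAAT box on either strand, for 16 windows of replication genes, 20 windows of mitotic genes and all 33469 windows of the RefSeq table. The E2F core stands in 62.5% of replication windows and 10.0% of mitotic windows, and the CHR in 25.0% and 75.0%.

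Among genes of the replicative helicase, Mcm2, Mcm3, Mcm6 and Gins1 rose at 485 mg/kg, while Mcm4, Mcm5 and Mcm7 did not pass the test. The Mcm2 to Mcm7 proteins form the ring that unwinds DNA, and Gins1 is part of the GINS complex that activates it. Mcm2 (probe set 1374036_at) lay between 5.88 and 6.12 (median 6.00) in vehicle rats, between 6.11 and 6.66 (median 6.30) at 48.5 mg/kg and between 6.19 and 6.65 (median 6.30) at 485 mg/kg. The log2 difference from vehicle was 0.35 (SE 0.09, adjusted p = 0.0294) at 48.5 mg/kg and 0.37 (SE 0.09, adjusted p = 0.00495) at 485 mg/kg. Thus 5 of 6 rats at 48.5 mg/kg and 6 of 6 at 485 mg/kg exceeded every vehicle rat, and the medians at the 2 doses were equal to 2 decimals. The call of Mcm2 at 48.5 mg/kg was lost without any 1 of vehicle replicates 1, 2, 3 and 5 or of 48.5 mg/kg replicates 2, 5 and 6 (adjusted p between 0.0511 and 0.106). It was also lost with only the 12 arrays compared (adjusted p = 0.0935).

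Mcm6 (1371074_a_at) spread more widely, between 5.21 and 6.26 (median 5.80) in vehicle rats, between 5.79 and 6.91 (median 6.21) at 48.5 mg/kg and between 6.08 and 6.98 (median 6.30) at 485 mg/kg. It rose at 485 mg/kg by 0.59 (SE 0.19, adjusted p = 0.0322), and its difference at 48.5 mg/kg was 0.45 (SE 0.19, adjusted p = 0.231). In the Mcm6 values, 3 rats at 48.5 mg/kg and 4 at 485 mg/kg lay above the whole vehicle group. Gins1 (1376231_at), a dim probe set, lay between 3.88 and 4.33 (median 4.19) in vehicle rats, between 4.05 and 4.57 (median 4.38) at 48.5 mg/kg and between 4.34 and 5.00 (median 4.76) at 485 mg/kg. Gins1 rose by 0.53 at 485 mg/kg (SE 0.09, adjusted p = 6.8e-05), and all 6 rats lay above the vehicle group. Mcm3 rose by 0.23 at 485 mg/kg (SE 0.08, adjusted p = 0.0359). The call of Mcm6 was lost without vehicle replicate 1 or 3 or 485 mg/kg replicate 2 or 3 (adjusted p between 0.054 and 0.114), and that of Mcm3 without vehicle replicate 2, 4 or 5 or 485 mg/kg replicate 2, 3 or 6 (adjusted p between 0.0681 and 0.106). Differences of Mcm4, Mcm5 and Mcm7 at 485 mg/kg were 0.33 (adjusted p = 0.0947), 0.20 (adjusted p = 0.179) and 0.18 (adjusted p = 0.122).

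The clamp and lagging strand genes Pcna, Rfc4 and Fen1 rose at 485 mg/kg, and Pcna and Fen1 also at 48.5 mg/kg. Pcna is the sliding clamp of the DNA polymerases, Rfc4 a subunit of its loader, and Fen1 the nuclease that trims Okazaki fragments. Fen1 (1367983_at) lay between 6.08 and 6.36 (median 6.16) in vehicle rats, between 6.29 and 6.87 (median 6.52) at 48.5 mg/kg and between 6.42 and 6.67 (median 6.55) at 485 mg/kg. It rose by 0.36 at 48.5 mg/kg (SE 0.08, adjusted p = 0.00385) and by 0.36 at 485 mg/kg (SE 0.08, adjusted p = 0.00062). Its range at 485 mg/kg lay within that at 48.5 mg/kg, and 5 of 6 rats at 48.5 mg/kg and 6 of 6 at 485 mg/kg exceeded all vehicle rats. In the 3 lower dose groups, Fen1 medians were, from the lowest dose up, 6.23, 6.29 and 6.11.

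For Pcna (1367671_at), vehicle rats lay between 9.25 and 9.59 (median 9.39), rats at 48.5 mg/kg between 9.46 and 9.86 (median 9.60) and rats at 485 mg/kg between 9.68 and 9.83 (median 9.75). Pcna rose by 0.22 at 48.5 mg/kg (SE 0.06, adjusted p = 0.0414) and by 0.35 at 485 mg/kg (SE 0.06, adjusted p = 8.47e-05). Of the 48.5 mg/kg rats 3 of 6 exceeded every vehicle rat, and of the 485 mg/kg rats all 6 did. The call of Pcna at 48.5 mg/kg was lost without any 1 of vehicle replicates 1 to 5 or of 48.5 mg/kg replicates 2, 5 and 6 (adjusted p between 0.056 and 0.149). It was also lost with a replicate block (adjusted p = 0.0627), under quantile normalization (adjusted p = 0.106) and with only the 12 arrays compared (adjusted p = 0.149). Rfc4 rose at 485 mg/kg by 0.35 (SE 0.08, adjusted p = 0.00164), with all 6 rats above the vehicle group.

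Of the genes that start new strands, Prim1 rose and Pola1 did not pass the test. Prim1 encodes the primase subunit that lays the RNA primer, and Pola1 the catalytic subunit of DNA polymerase alpha, which extends it. Prim1 (1388182_at) lay between 6.51 and 6.76 (median 6.70) in vehicle rats, between 6.77 and 7.09 (median 6.93) at 48.5 mg/kg and between 6.92 and 7.49 (median 7.14) at 485 mg/kg. It rose at 485 mg/kg by 0.48 (SE 0.09, adjusted p = 0.000129). Its difference of 0.27 (SE 0.09) at 48.5 mg/kg did not pass (adjusted p = 0.086), although all 6 rats lay above the 6 vehicle rats. No other gene of the set stood wholly above vehicle at that dose, and none wholly below, against 1.52% and 0.677% of all probe sets. Pola1 differed by 0.01 at 485 mg/kg (SE 0.07, adjusted p = 0.954).

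Genes of nucleotide supply held the largest replication changes, in Dut and Tk1. Dut hydrolyses dUTP and so keeps uracil out of DNA, Tk1 is the S phase thymidine kinase, Rrm1 the large subunit of ribonucleotide reductase, and Tyms makes dTMP. Dut (1387865_at) lay between 9.38 and 9.60 (median 9.48) in vehicle rats, between 9.53 and 9.78 (median 9.68) at 48.5 mg/kg and between 9.95 and 10.25 (median 10.17) at 485 mg/kg. The rise at 485 mg/kg was 0.66 (SE 0.06, adjusted p = 2.64e-11), a 1.58-fold higher signal and the smallest p among the probe sets used. The difference of 0.18 at 48.5 mg/kg was not called (SE 0.06, adjusted p = 0.0618). The 485 mg/kg group overlapped neither the 48.5 mg/kg group nor the vehicle group for Dut. A second, much dimmer Dut probe set (1395361_at) differed by 0.09 at 485 mg/kg (adjusted p = 0.642).

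Tk1 (1372631_at) lay between 6.80 and 7.44 (median 7.04) in vehicle rats, between 7.20 and 7.48 (median 7.28) at 48.5 mg/kg and between 7.42 and 7.95 (median 7.68) at 485 mg/kg. Tk1 rose by 0.60 at 485 mg/kg (SE 0.09, adjusted p = 6.08e-06), with 4 of 6 rats above the vehicle range. Its probe sets disagreed in size: 1389858_at gave 0.44 (adjusted p = 0.00194) at 48.5 mg/kg, where the probe set used gave 0.24 (adjusted p = 0.158). At 485 mg/kg 1389858_at gave 1.12 (adjusted p = 3.02e-12), a larger rise and a smaller p than any probe set used here. The remaining, dim probe set (1397872_at) gave 0.24 at that dose and was not called (adjusted p = 0.132). Rrm1 (1371862_at) lay between 6.89 and 7.13 (median 7.00) in vehicle rats, between 7.09 and 7.38 (median 7.12) at 48.5 mg/kg and between 7.11 and 7.53 (median 7.45) at 485 mg/kg. It rose by 0.36 at 485 mg/kg (SE 0.08, adjusted p = 0.000593), and 5 of 6 rats exceeded the vehicle group. Tyms differed by 0.27 at 48.5 mg/kg (adjusted p = 0.0902) and by 0.21 at 485 mg/kg (adjusted p = 0.117).

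**Figure D4:**
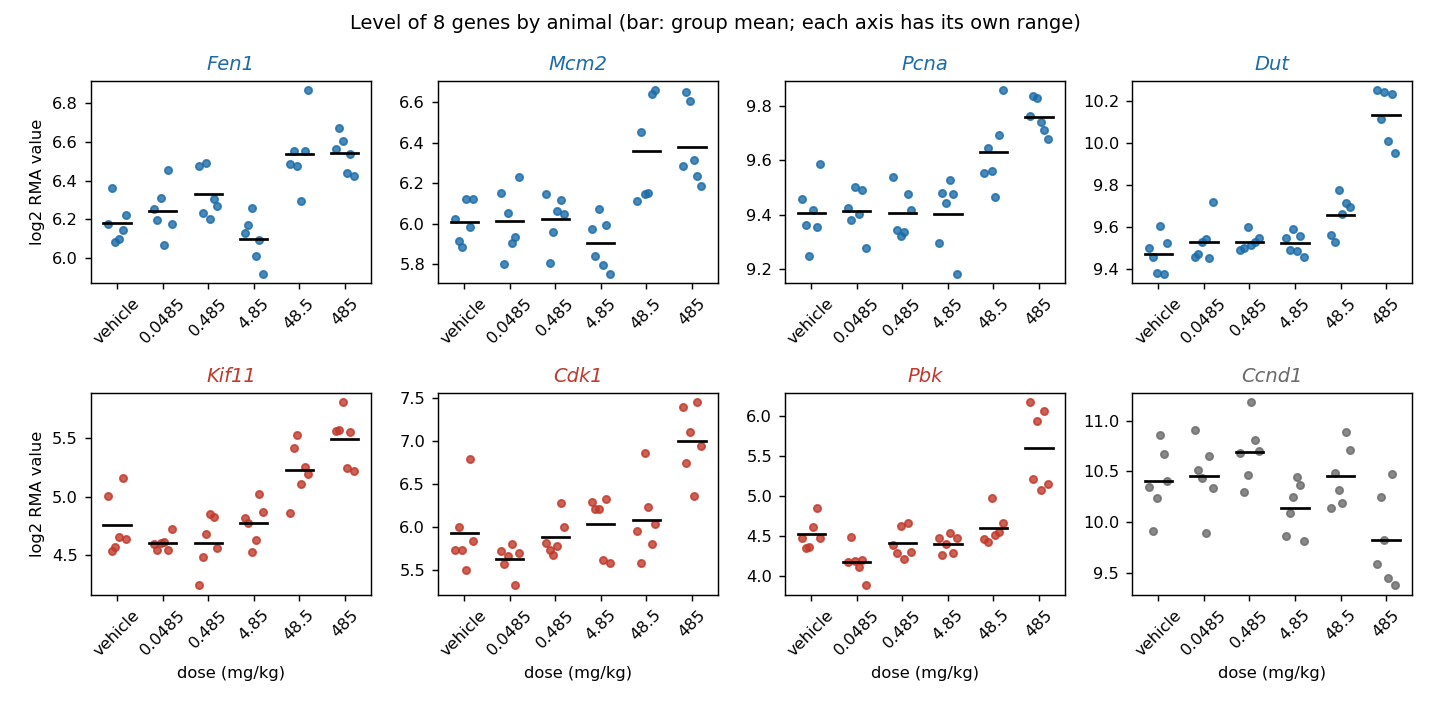
Log2 RMA value of 8 genes in each of the 36 rats (1 point each, bar at the group mean) by dose in mg/kg, each panel on its own axis. Fen1 and Mcm2 sit at about the same level at 48.5 and 485 mg/kg, Dut and Pbk stand apart from vehicle and 48.5 mg/kg at 485 mg/kg, Cdk1 is higher there with overlap, Kif11 and Pcna are higher at both doses, and Ccnd1 is lower at 485 mg/kg.

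The regulators of entry into S phase did not move together: E2f1, Ccne2 and Cdk4 rose at 485 mg/kg, Ccnd1 fell, and Ccne1 and Cdk2 did not pass the test. E2f1 is the transcription factor of replication genes, Ccne1 and Ccne2 are the E cyclins that activate Cdk2, and Cdk4 is the partner of cyclin D1, the product of Ccnd1. Ccnd1 (1383075_at) lay between 9.92 and 10.86 (median 10.38) in vehicle rats, between 10.14 and 10.89 (median 10.40) at 48.5 mg/kg and between 9.38 and 10.48 (median 9.71) at 485 mg/kg. It fell at 485 mg/kg by 0.58 (SE 0.18, adjusted p = 0.0243), a 1.49-fold lower signal, and the other 2 Ccnd1 probe sets gave -0.53 and -0.55. The groups overlapped, with 4 of 6 rats at 485 mg/kg below every vehicle rat. The call was lost without vehicle replicate 4 or 5 or 485 mg/kg replicate 1, 4 or 6 (adjusted p between 0.0602 and 0.0759).

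The E2f1 probe set (1382511_at) was dim. Its values lay between 4.44 and 5.00 (median 4.87) in vehicle rats. They lay between 4.81 and 5.43 (median 5.10) at 48.5 mg/kg and between 5.04 and 5.61 (median 5.14) at 485 mg/kg. The rise at 485 mg/kg was 0.45 (SE 0.10, adjusted p = 0.00169), and the value of 0.31 at 48.5 mg/kg was not called (SE 0.10, adjusted p = 0.0947). For E2f1, 4 of 6 rats at 48.5 mg/kg and 6 of 6 at 485 mg/kg lay above the vehicle group. Cdk4 (1369950_at) lay between 9.21 and 9.39 (median 9.28) in vehicle rats, between 9.24 and 9.61 (median 9.47) at 48.5 mg/kg and between 9.47 and 9.72 (median 9.54) at 485 mg/kg. It rose at 485 mg/kg by 0.28 (SE 0.07, adjusted p = 0.00197), again in all 6 rats relative to the vehicle range.

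Ccne2 (1374359_at), a dim probe set, lay between 3.77 and 4.33 (median 3.91) in vehicle rats, between 3.90 and 4.31 (median 4.03) at 48.5 mg/kg and between 4.07 and 4.69 (median 4.20) at 485 mg/kg. It rose at 485 mg/kg by 0.32 (SE 0.10, adjusted p = 0.0317), but only 2 of 6 rats exceeded the vehicle range, and the call was lost without any 1 of the vehicle rats but replicate 4, or without 485 mg/kg replicate 2, 3 or 6 (adjusted p between 0.0518 and 0.126). The second Ccne2 probe set gave 0.03 (adjusted p = 0.824). Ccne1 differed by 0.30 (SE 0.14, adjusted p = 0.175) and Cdk2 by -0.08 (SE 0.07, adjusted p = 0.531) at 485 mg/kg.

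Of the kinases and cyclins of G2 and mitosis, Cdk1, Ccna2, Ccnb1, Aurkb, Bub1, Bub1b, Pbk and Melk rose at 485 mg/kg, and Ccnb2, Plk1 and Ttk did not pass the test there. Cdk1 with cyclins A2 and B1 (Ccna2, Ccnb1) drives entry into mitosis, Bub1 and Bub1b act in the spindle checkpoint, Aurkb corrects faulty chromosome attachment, and Pbk and Melk are kinases of dividing cells. Cdk1 (1367776_at) lay between 5.50 and 6.79 (median 5.78) in vehicle rats, between 5.59 and 6.86 (median 5.99) at 48.5 mg/kg and between 6.36 and 7.46 (median 7.02) at 485 mg/kg. The log2 difference from vehicle was 0.15 at 48.5 mg/kg (SE 0.19, adjusted p = 0.786) and 1.07 at 485 mg/kg (SE 0.19, adjusted p = 8.35e-05). Vehicle replicate 5, at 6.79, lay within the range of the top dose, and 4 of 6 rats at 485 mg/kg exceeded it.

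Pbk (1397341_at) had the largest rise among the probe sets used. It lay between 4.35 and 4.86 (median 4.48) in vehicle rats, between 4.43 and 4.98 (median 4.53) at 48.5 mg/kg and between 5.08 and 6.18 (median 5.58) at 485 mg/kg. The difference was 0.08 at 48.5 mg/kg (SE 0.14, adjusted p = 0.858) and 1.08 at 485 mg/kg (SE 0.14, adjusted p = 5.23e-07), a 2.12-fold higher signal at the top dose. All 6 rats at 485 mg/kg lay above all vehicle rats and all rats at 48.5 mg/kg. Ccna2 (1379582_a_at) lay between 3.97 and 5.48 (median 4.11) in vehicle rats, between 4.10 and 4.85 (median 4.48) at 48.5 mg/kg and between 4.49 and 6.19 (median 5.48) at 485 mg/kg. It rose by 1.07 at 485 mg/kg (SE 0.25, adjusted p = 0.00222), with 3 of 6 rats above vehicle replicate 5, the highest vehicle rat.

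Bub1 (1385086_at), also dim, lay between 3.49 and 4.85 (median 4.19) in vehicle rats, between 4.30 and 4.52 (median 4.34) at 48.5 mg/kg and between 4.57 and 5.22 (median 4.97) at 485 mg/kg. It rose by 0.77 at 485 mg/kg (SE 0.15, adjusted p = 0.00038), and the 485 and 48.5 mg/kg groups did not overlap. Ccnb1 rose by 0.70 (SE 0.19, adjusted p = 0.00884), Aurkb by 0.64 (SE 0.17, adjusted p = 0.00758), Melk by 0.40 (SE 0.09, adjusted p = 0.00185) and Bub1b by 0.23 (SE 0.08, adjusted p = 0.0378) at 485 mg/kg. Bub1b was not among the genes the F test called, and its call was lost without vehicle replicate 2, 3 or 4 or 485 mg/kg replicate 1 or 3 (adjusted p between 0.0633 and 0.131). The checkpoint kinase Ttk differed by 0.27 (adjusted p = 0.0525), Ccnb2 by 0.65 (adjusted p = 0.0627) and Plk1, a kinase of mitotic entry and exit, by 0.10 (adjusted p = 0.488). Cdkn3, a phosphatase that acts on cyclin-dependent kinases, had the widest spread among vehicle rats, between 5.84 and 7.63, and its 0.68 at 485 mg/kg did not pass (SE 0.31, adjusted p = 0.157).

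Motor and spindle genes included the only mitotic gene that rose at 48.5 mg/kg, Kif11. Kif11 encodes the kinesin that pushes the spindle poles apart, Kif20a a kinesin of cytokinesis, Prc1 a bundler of midzone microtubules, Racgap1 a regulator of the cleavage furrow, and Nusap1 a microtubule-binding protein. Kif11 (1390891_at) lay between 4.53 and 5.16 (median 4.65) in vehicle rats, between 4.86 and 5.53 (median 5.22) at 48.5 mg/kg and between 5.21 and 5.81 (median 5.55) at 485 mg/kg. It rose by 0.47 at 48.5 mg/kg (SE 0.11, adjusted p = 0.0155) and by 0.73 at 485 mg/kg (SE 0.11, adjusted p = 1.05e-05). The values of 4 of 6 rats at 48.5 mg/kg and of 6 of 6 at 485 mg/kg exceeded those of all vehicle rats. The call at 48.5 mg/kg was lost without 48.5 mg/kg replicate 3 (adjusted p = 0.0533) and with only the 12 arrays compared (adjusted p = 0.0692). A second Kif11 probe set (1385619_at) was called at both doses too, at 0.39 (adjusted p = 0.0443) and 0.39 (adjusted p = 0.0139).

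Kif20a (1373722_at) lay between 5.16 and 6.18 (median 5.54) in vehicle rats, between 5.06 and 6.16 (median 5.55) at 48.5 mg/kg and between 5.92 and 6.63 (median 6.32) at 485 mg/kg. It rose by 0.72 at 485 mg/kg (SE 0.15, adjusted p = 0.000767), and the 48.5 mg/kg and vehicle groups covered nearly the same range. Racgap1 (1373658_at) lay between 4.28 and 5.15 (median 4.53) in vehicle rats, between 4.63 and 5.06 (median 4.92) at 48.5 mg/kg and between 4.93 and 5.79 (median 5.38) at 485 mg/kg. Racgap1 rose by 0.77 at 485 mg/kg (SE 0.17, adjusted p = 0.000909), but its second probe set gave 0.23 and was not called. Prc1 rose by 0.58 (SE 0.10, adjusted p = 4.71e-05) with all 6 rats above the vehicle group, and Nusap1 by 0.47 (SE 0.09, adjusted p = 0.000255). The centromere protein gene Cenpf and the spindle gene Tacc3 differed by 0.24 (adjusted p = 0.223) and 0.19 (adjusted p = 0.339) at 485 mg/kg.

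Among the other mitotic genes, Mki67, Top2a, Birc5, Cdc20 and Ube2c rose at 485 mg/kg. Mki67 encodes the Ki-67 antigen used to count cycling cells, Top2a the topoisomerase that untangles sister chromatids, Birc5 the survivin of the chromosomal passenger complex, and Cdc20 and Ube2c parts of the ubiquitin route that ends mitosis. Mki67 (1374775_at), a dim probe set, lay between 3.59 and 4.35 (median 3.77) in vehicle rats, between 3.59 and 4.27 (median 4.09) at 48.5 mg/kg and between 4.03 and 5.27 (median 4.57) at 485 mg/kg. It rose by 0.75 at 485 mg/kg (SE 0.15, adjusted p = 0.000489), with 3 of 6 rats above the vehicle range. Ube2c rose by 0.63 (SE 0.16, adjusted p = 0.00337), Cdc20 by 0.51 (SE 0.13, adjusted p = 0.00568), Top2a by 0.43 (SE 0.11, adjusted p = 0.00501) and Birc5 by 0.31 (SE 0.09, adjusted p = 0.0205). The Birc5 call was lost without vehicle replicate 4 or 485 mg/kg replicate 1 or 3 (adjusted p between 0.0558 and 0.0807). A second Top2a probe set gave 0.29 at 485 mg/kg and was not called (adjusted p = 0.0592). Of the other Cdc20 probe sets, 1387895_s_at and 1394113_at were called there, at 0.49 and 0.21. The dimmer 1389506_x_at and 1374360_at were not, at 0.11 and -0.05.

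Across the set, 12 genes had all 6 rats at 485 mg/kg above all 6 vehicle rats, against 4.30% of all probe sets, and none had them all below, against 3.03%. The 12 were 7 replication genes (Mcm2, Pcna, Dut, Fen1, Gins1, Prim1 and Rfc4), Cdk4 and E2f1, and 3 mitotic genes (Prc1, Kif11 and Pbk). Brightness also differed between the roles: 12 genes (2 replication, 2 of S phase entry and 8 mitotic) had a mean below 5.31, the lowest array median, in every group, and 28 (14 replication, 3 of S phase entry and 11 mitotic) had a mean above it in every group. The 12 dim genes were Gins1, Pola1, E2f1, Ccne2, Mki67, Top2a, Bub1, Bub1b, Aurkb, Cenpf, Ttk and Melk. Background can compress a difference in a dim probe set.

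The direct comparison of 485 with 48.5 mg/kg, which uses no vehicle array in its difference, called 17 of 46 genes higher and 1 lower, against 2.55% and 2.31% of all probe sets, or 4.86% in either direction. The higher ones were 14 of 24 mitotic genes and 3 of 16 replication genes (Dut, Tk1 and Gins1). The median difference was 0.46 over the mitotic genes, 0.13 over the replication genes and 0.00 over all probe sets. Mitotic values included Pbk at 1.00 (SE 0.14, adjusted p = 1.24e-05), Ccna2 at 0.93 (SE 0.25, adjusted p = 0.0215), Cdk1 at 0.92 (SE 0.19, adjusted p = 0.00208) and Kif20a at 0.67 (SE 0.15, adjusted p = 0.00522). Dut was higher by 0.48 (SE 0.06, adjusted p = 3.17e-07), Gins1 by 0.37 (SE 0.09, adjusted p = 0.0137) and Tk1 by 0.36 (SE 0.09, adjusted p = 0.0134).

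By contrast Fen1 differed by 0.00 (SE 0.08, adjusted p = 0.996) and Mcm2 by 0.02 (SE 0.09, adjusted p = 0.958) between the 2 doses. Kif11, at 0.26, and Racgap1, at 0.52, also missed the threshold in that comparison (adjusted p = 0.228 and 0.0633). The second probe sets of Ccnb1 and Top2a, genes called on the probe sets used, missed it too (adjusted p = 0.113 and 0.131). Plk1 was called here, at 0.29 (SE 0.08, adjusted p = 0.0257), though not against vehicle, since its 48.5 mg/kg median of 6.18 lay below the vehicle median of 6.37. Ccnd1 was lower at 485 mg/kg, with a difference of -0.63 (SE 0.18, adjusted p = 0.0336), but that call was lost in 4 of 8 other settings (adjusted p up to 0.0835), and the other 2 Ccnd1 probe sets were not called (adjusted p = 0.0515 and 0.105). Only Dut, Bub1, Pbk and Melk had 485 mg/kg rats that all lay above all 48.5 mg/kg rats, against 1.45% of all probe sets, and no gene had them all below, against 1.13%. With any 1 array left out, 6 to 15 mitotic genes and 1 to 3 replication genes were called. The lowest mitotic count came without 485 mg/kg replicate 1 and equally without 485 mg/kg replicate 3, which lost the same mitotic genes. The lowest replication count came without 485 mg/kg replicate 3, where Tk1 (adjusted p = 0.0583) and Gins1 (adjusted p = 0.0603) were lost. Gins1 was also lost without 48.5 mg/kg replicate 4 (adjusted p = 0.054). Dut, Pbk, Cdk1, Kif20a, Prc1, Nusap1 and Melk kept the call whichever array was left out, and Bub1, Ccna2, Ccnb1, Cdc20, Mki67, Plk1, Top2a, Ube2c and Ccnd1 each lost it without 2 to 8 of the arrays of these doses in turn (adjusted p between 0.0502 and 0.151).

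**Figure D5:**
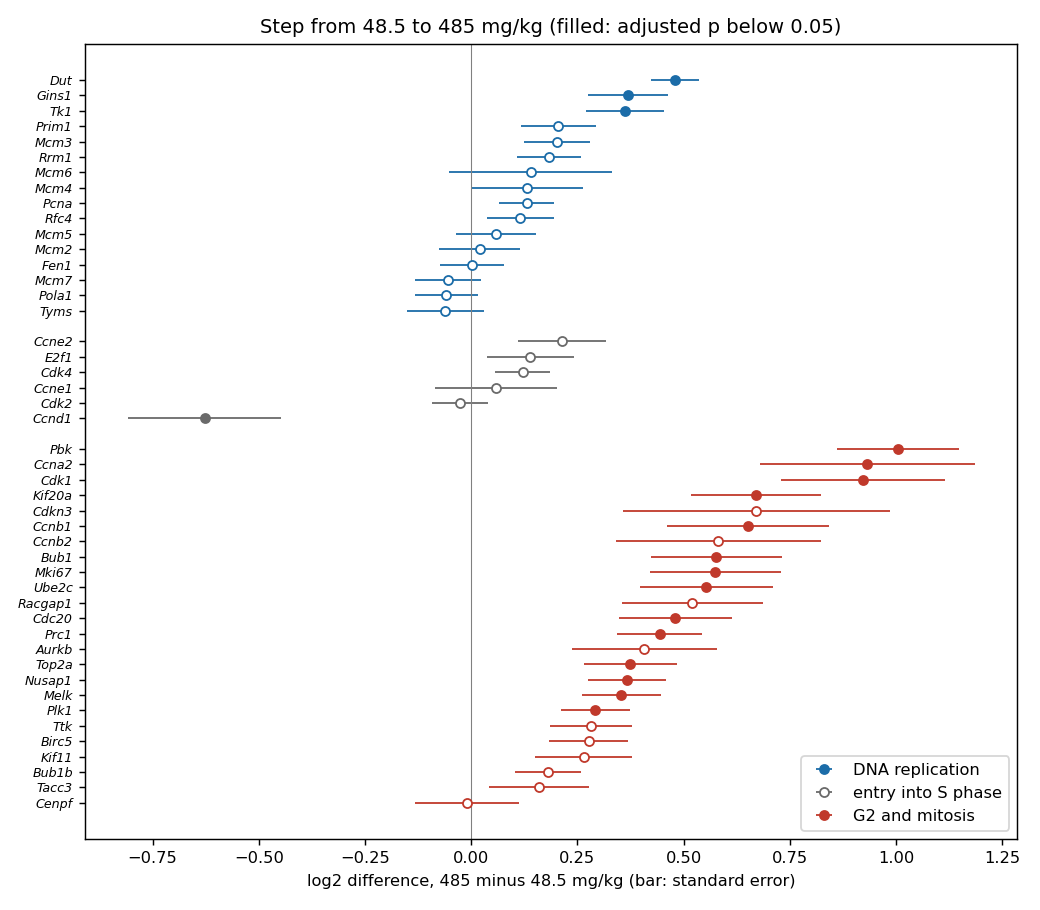
Log2 difference of 485 minus 48.5 mg/kg (horizontal axis, bar for the standard error) for each of the 46 genes, grouped by role and filled where the adjusted p was below 0.05. Of the mitotic genes 14 are filled, of the replication genes Dut, Gins1 and Tk1, and Ccnd1 is the filled point on the negative side.

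At the 3 lower doses no gene of the set was called, and the medians of the replication genes were, from the lowest dose up, 0.00, 0.01 and -0.01. The mitotic genes were mostly below the vehicle mean at 0.0485 mg/kg, with 23 of 24 negative and a median of -0.14. All 6 rats of that group had a mitotic median between -0.17 and -0.13, within the range of vehicle rats. The vehicle mean includes both the high replicate 5 (mitotic median 0.43) and the low replicate 4 (-0.33), and their part in this was not tested. Cdkn3 had the largest such differences, -0.65 at 0.0485 mg/kg and -0.64 at 0.485 mg/kg, with unadjusted p of 0.0452 and 0.0478 and no adjusted call.

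Other genes of the same pathways, from lists that do not overlap the set, were also called in part at 485 mg/kg, where 7.81% of all probe sets were called higher and 7.22% lower. Of 35 further replication genes 7 rose and 1 fell, with a median of 0.10. Among them were Rfc2, another clamp loader subunit, at 0.84 (SE 0.07, adjusted p = 5.36e-11), the helicase loader Cdt1 at 0.63 (SE 0.20, adjusted p = 0.0255) and the single-strand binding protein genes Rpa1 at 0.38 and Rpa3 at 0.36. The one that fell was Pold3, a subunit of DNA polymerase delta, at -0.23 (SE 0.07, adjusted p = 0.0159). Of 26 further mitotic genes 13 rose and 1 fell, with a median of 0.29. Spc25, of the kinetochore Ndc80 complex, rose by 1.38 (SE 0.16, adjusted p = 2.73e-08), Cdca3 by 0.92, Ect2, the exchange factor of cytokinesis, by 0.87, and the tubulin-binding gene Stmn1 by 0.65. Ccnf, cyclin F, fell by 0.26 (SE 0.09, adjusted p = 0.0349). At 48.5 mg/kg, where 2.57% of all probe sets were called higher, 2 of the 35 replication genes rose (Rfc2 at 0.34 and the origin recognition gene Orc5 at 0.24), and 1 of the 26 mitotic genes did (Stmn1 at 0.45).

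Of 19 measured genes of cyclin-dependent kinase inhibition and checkpoints, 3 rose and 4 fell at 485 mg/kg, against 7.81% and 7.22% of all probe sets. Mdm2, the p53 ubiquitin ligase and p53 target, rose by 0.63 at 48.5 mg/kg (SE 0.12, adjusted p = 0.00105) and by 1.22 at 485 mg/kg (SE 0.12, adjusted p = 6.48e-10). Gadd45a, a stress gene, rose by 0.89 and the checkpoint kinase gene Atr by 0.32 at 485 mg/kg. The genes that fell at 485 mg/kg were Cdkn1c at -0.55, the retinoblastoma gene Rb1 at -0.54, Rbl2 at -0.25 and Cdkn1b at -0.25. The other 12 of the 19 were not called, and the median over the list was 0.02 at that dose. Of 24 measured growth signal genes, 1 rose and 5 fell at 485 mg/kg, against the same background. The transcription factor gene Myc rose by 1.09 (SE 0.34, adjusted p = 0.0241), while the receptor gene Egfr fell by 0.85, the ligand genes Egf by 0.55, Hgf by 0.38 and Igf1 by 0.27, and Junb by 0.53.

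Markers of liver cell types moved at 485 mg/kg beside these genes, and their part in the results was not tested. Sums were taken over each list on the linear scale. The counts of called markers stand against 7.81% of all probe sets called higher and 7.22% called lower at 485 mg/kg. The 8 hepatocyte markers summed to between 117736 and 120776 at 485 mg/kg and to between 131826 and 135446 in vehicle rats, and 5 of 8 fell. Of 9 macrophage markers 4 fell (Cd163, Clec4f, Csf1r and C1qb), with sums between 3705 and 5751 at 485 mg/kg and between 5950 and 7858 in vehicle rats. Of 7 endothelial markers 2 fell (Kdr and Pecam1), with sums between 3238 and 3708 at 485 mg/kg and between 3453 and 4123 in vehicle rats. Of 6 erythroid markers 2 fell (Hbb and Alas2), with sums between 3486 and 6116 at 485 mg/kg and between 6387 and 9460 in vehicle rats. The other 4 (Ahsp, Epb42, Klf1 and Slc4a1) were dim in vehicle rats. The hepatocyte, macrophage and erythroid sums were lower at 485 mg/kg than in vehicle rats with no overlap of the ranges, and the endothelial sums overlapped.

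Of 12 T and NK cell markers 2 fell (Cd8a and Cd3d), and 10 were dim in vehicle rats, including Cd3d itself, Cd3e, Cd3g and Gzmb. The T and NK cell sums lay between 320 and 379 at 485 mg/kg and between 372 and 492 in vehicle rats. None of 3 B cell markers was called, with sums between 693 and 1305 at 485 mg/kg and between 854 and 1499 in vehicle rats. Of 9 stellate cell markers none was called, with sums between 2721 and 4925 at 485 mg/kg and between 2975 and 5633 in vehicle rats. Of 5 bile duct markers 1 rose, Epcam, by 0.40 at 48.5 mg/kg and by 0.60 at 485 mg/kg (SE 0.10, adjusted p = 3.02e-05). The other 4 lay below the vehicle mean at 485 mg/kg and were not called, and the median of the 5 was -0.12. The sums lay between 910 and 1110 at 485 mg/kg and between 638 and 809 in vehicle rats, with no overlap. The bile duct markers Krt7 and Cftr were dim in vehicle rats.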

How the data were processed

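Liver RNA of 36 rats was measured on 36 Affymetrix arrays, 1 per rat. The deposited table holds log2 values, for which the submitters' processing notes name RMA and affy, with versions and genome build not given in the sources used here. RMA quantile normalizes arrays, so a value is relative to the other values of its array. Precision is limited by how many arrays there are. The 57 control rows among the 31099 of the table were dropped, and no filter on level was set. The platform table gave 20826 probe sets 1 gene, 436 several genes and 9780 none here. Entrez identifiers of 20758 matched RefSeq, and 0 symbols changed.

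A one-way model over all 36 arrays was fitted in limma 3.58.1 under R 4.3.3 (lmFit, then eBayes; residual degrees of freedom 30, prior 5.26), two-sided, adjusted by Benjamini-Hochberg over 31042 probe sets within a comparison. The code was tested on simulated data. The study's own package, R/maanova, was not used, and the ordinary test of the same model stood in as an alternative. The genes, roles, lists and tests were chosen with earlier results of these data known. All genes of the set could be named, and values by group are given for at most the 8 called genes with the largest change per role and direction, with Pcna added after its values were seen because it was called at 48.5 mg/kg. No p is given over the set as a whole. Alternatives were other scalings, a brightness filter, averaging the probe sets of a gene, trended and robust eBayes, only the compared arrays, the replicate number as a block, and leaving out each array in turn.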

Additional observations from a re-analysis of the deposited data

Results flagged for a closer look

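Values were tested for a single rat far from the other 5 of its group, for the role medians and the genes whose group values are given. Of 78 groups of 6 rats tested, 8 held such a rat, and chance alone marks about 1 in 20. Among role medians, 0.485 mg/kg replicate 5 had a mitotic median of 0.23, with the nearest rat at -0.04. The replication median of 4.85 mg/kg replicate 6 was -0.21, with the nearest rat at -0.01, and the array of this rat also had the lowest correlation with its own group.

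Among single genes, the vehicle rats held 3 such values. Ccna2 stood at 5.48 in vehicle replicate 5, with the next rat at 4.33. Ccne2 stood at 4.33 in vehicle replicate 4, with the next rat at 3.95, and Prim1 at 6.51 in vehicle replicate 5, below the next at 6.67. At 48.5 mg/kg, Bub1 stood at 4.52 in replicate 3, with the next rat at 4.36, and Mki67 at 3.59 in replicate 2, below the next at 4.05. Mcm6 at 485 mg/kg stood at 6.98 in replicate 3, with the next rat at 6.40.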

How the results depend on the processing

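Across the alternatives, no direction reversed among the 55 calls of single genes or the differences between role medians at the 2 highest doses. In every one of them, 0 genes of the set were called at the 3 lower doses. The replicate block, the ordinary test, trended and robust eBayes, the compared arrays alone and the brightness filter leave a single gene's difference unchanged. Its direction could reverse only under other scalings, averaged probe sets or the loss of an array. Of 55 calls of single genes, 55 were kept with each array centred on its median, 54 under quantile normalization (Pcna at 48.5 mg/kg was lost), 53 with trended and robust eBayes, 52 with probe sets averaged per gene and 51 with the ordinary test. With only the 12 arrays of a comparison, which leaves fewer degrees of freedom, 39 were kept. That setting called 1 gene of the set at 48.5 mg/kg (against 4) and 11 between the 2 highest doses (against 18), and of all probe sets 1 at 4.85 mg/kg (against 6), 556 at 48.5 mg/kg (against 1052) and 880 between the 2 highest doses (against 1509). With the brighter 15521 probe sets only, 28 of the 46 genes were tested, and 20 were called at 485 mg/kg (against 33) and 11 between the 2 highest doses.

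Replicate numbers were checked for pairing by correlating deviations from group means over all probe sets. The 90 pairs of same-numbered rats of different groups gave -0.18 to 0.23 (19 above 0.1). The 450 pairs with different numbers gave -0.30 to 0.24 (74 above 0.1). Such ranges over the whole array cannot show whether the number matters for a few genes. Replicate 5 was highest for 23, 19 and 15 of 24 mitotic genes in the vehicle, 0.485 and 4.85 mg/kg groups. For the 0.0485, 48.5 and 485 mg/kg groups the counts were 6, 4 and 5. A link between replicate numbers and these genes was not tested. With a replicate block in the model, 3, 35 and 19 genes of the set were called at 48.5 mg/kg, at 485 mg/kg and between these doses, and 37 by the F test. Pcna was the gene lost at 48.5 mg/kg. Every group holds the same replicate numbers, so the block cannot change a difference between groups, only its error. The role medians therefore still differed by 0.15 at 48.5 mg/kg and by -0.28 at 485 mg/kg.

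Leaving out 1 array gave 0 genes at each of the 3 lower doses, 2 to 7 at 48.5 mg/kg, 28 to 34 at 485 mg/kg, 7 to 19 between the 2 highest doses and 30 to 37 by the F test. At 48.5 mg/kg the count was 2 without vehicle replicate 1, 2 or 3 or without 48.5 mg/kg replicate 5 or 6, and 7 without 48.5 mg/kg replicate 1. Between the 2 highest doses it was 10 without 48.5 mg/kg replicate 2, 9 without 485 mg/kg replicate 1 and 7 without 485 mg/kg replicate 3. The replication median minus the mitotic one lay between 0.04 and 0.22 at 48.5 mg/kg and between -0.39 and -0.16 at 485 mg/kg. The mitotic median at 48.5 mg/kg lay between -0.0028 (without vehicle replicate 4) and 0.18 (without vehicle replicate 5). Of all probe sets, 678 were called at 48.5 mg/kg without 48.5 mg/kg replicate 5. The causes of these shifts were not tested. The array signal of the 12 dim genes limits how small a change they can show.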
